A study of Homo sapiens with 18 samples.

Results

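SW620 cells in DMSO were compared with HT-29 iZEB1 cells in DMSO with doxycycline (DOX), 3 libraries against 3. These are 6 of the 18 RNA sequencing libraries of the series, chosen by their labels alone. The comparison asks how far induced ZEB1 brings HT-29 towards a line that makes its own ZEB1, and what stays different. The 3 libraries of HT-29 iZEB1 in DMSO without DOX gave the distance between the lines before induction. The other 9 libraries, all with RepSox, entered only the estimate of the spread, the filter on low counts and the scaling.

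SW620 and HT-29 are human colorectal cancer lines, SW620 from a lymph node metastasis and HT-29 from a primary tumour. HT-29 iZEB1 carries a ZEB1 expression system that DOX switches on. SW620 in DMSO received neither the system nor DOX, and the induced HT-29 iZEB1 cells received DOX at 1 µg/ml, for 24 hours by the protocol and for 48 hours by the design text of the series. The uninduced HT-29 iZEB1 cells carry the same system. The labels give neither the promoter of the system nor whether the line is a clone or a pool, and no HT-29 group with DOX but without the system was used here. Cell line, DOX and ZEB1 therefore cannot be told apart in a difference between SW620 and induced HT-29 iZEB1. The labels do not say whether replicates were separate cultures, so the p-values measure the spread between these libraries.

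The epithelial-mesenchymal transition (EMT) is a programme in which epithelial cells lose junctions and polarity and take on a spindle shape and motility. ZEB1 is a zinc-finger transcription factor that binds E-box motifs and represses epithelial genes, CDH1 first among them, and it is itself held down by the miR-200 family. In colorectal cancer ZEB1 is known from the invasive front and from lines with mesenchymal traits, and cells often stop between the epithelial and the mesenchymal state.

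The labels call both lines epithelial, and both held some of the markers of colonic epithelium. All 14 of these markers passed the filter on low counts, and their summed level was 6262 to 6707 CPM (counts per M counts of the scaled library) in SW620, 4786 to 5282 with DOX and 9194 to 10389.5 without DOX. The keratins KRT8, KRT18 and KRT19 made up most of each of these sums. SW620 had EPCAM, KRT8, KRT18, KRT19 and VIL1, but hardly any KRT20, LGALS4 or CDH17. Of 14 mesenchymal markers, 7 passed the filter, and their summed level was 316 to 327 CPM in SW620, 5.56 to 7.05 CPM with DOX and 2.55 to 3.45 CPM without DOX. VIM made up most of that sum in SW620. CDH2 (N-cadherin) had 0 counts in SW620 over its 3 libraries, 1 with DOX and 0 without. TWIST1 had 0 in each of the 3 groups, ZEB2 had 4, 9 and 13, and SPARC had 4, 0 and 0. SW620 was thus high for some mesenchymal genes and near 0 for others, and is called here by its name only.

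Library totals were 37.2 to 37.4 M counts in SW620, 38.3 to 39.8 M with DOX and 36.5 to 36.7 M without DOX. Mitochondrially encoded genes took 4.68% to 5.17% of counts in SW620, 2.98% to 5.71% with DOX and 4.31% to 5.30% without DOX. The lowest share belonged to replicate 2 with DOX, which also differed most from its group (chi-square per degree of freedom 32.6 and 42.6 against the other two, and 8.95 between those). That library is named below where a result moves with it.

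The lines stayed far apart after induction. Of 19107 genes tested, 14992 (78.5%) differed between SW620 and HT-29 iZEB1 with DOX at an adjusted p below 0.05 in edgeR's quasi-likelihood test with Benjamini-Hochberg adjustment. Of these, 7955 (41.6% of the genes tested) were higher in SW620 and 7037 (36.8%) were lower. At least 4-fold differences were called for 4564 genes (23.9%), 2521 higher (13.2%) and 2043 lower (10.7%) in SW620. Against HT-29 iZEB1 without DOX, 14636 genes (76.6%) were called, 7666 higher (40.1%) and 6970 lower (36.5%), and 4493 (23.5%) by at least 4-fold. Within HT-29 iZEB1, 7319 genes (38.3%) changed with DOX, of which 3449 rose (18.1%) and 3870 fell (20.3%), and 441 (2.31%) changed by at least 4-fold. Libraries separated without overlap for 79.1% of genes between SW620 and induced cells, for 79% between SW620 and uninduced cells and for 44.2% between induced and uninduced cells. The 3 comparisons share libraries with each other, so their values are given side by side and not tested against each other.

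The distance between the lines was nearly the same with and without DOX. The root mean square difference of group means in log2 CPM, over all genes tested, was 2.21 between SW620 and HT-29 iZEB1 with DOX and 2.22 between SW620 and HT-29 iZEB1 without DOX. Single pairs of libraries ran from 2.23 to 2.24 with DOX and from 2.24 to 2.26 without DOX. The median absolute difference went the other way, 0.860 with DOX and 0.795 without DOX, so a typical gene lay slightly farther from SW620 after induction. DOX itself moved HT-29 iZEB1 by 0.611 (root mean square), with library pairs from 0.700 to 0.732, against 0.409 to 0.473 between libraries of one group. In a principal component analysis of the 9 DMSO libraries, the first component held 89.3% of the variance and separated the lines. The second held 5.19% and separated HT-29 iZEB1 with and without DOX, with SW620 at -1.52 to 0.66. Components are centred on the mean of these libraries, and the first already set SW620 apart. The place of SW620 on the second was therefore nearly fixed beforehand and does not measure closeness to either HT-29 iZEB1 group.

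**Figure D1:**
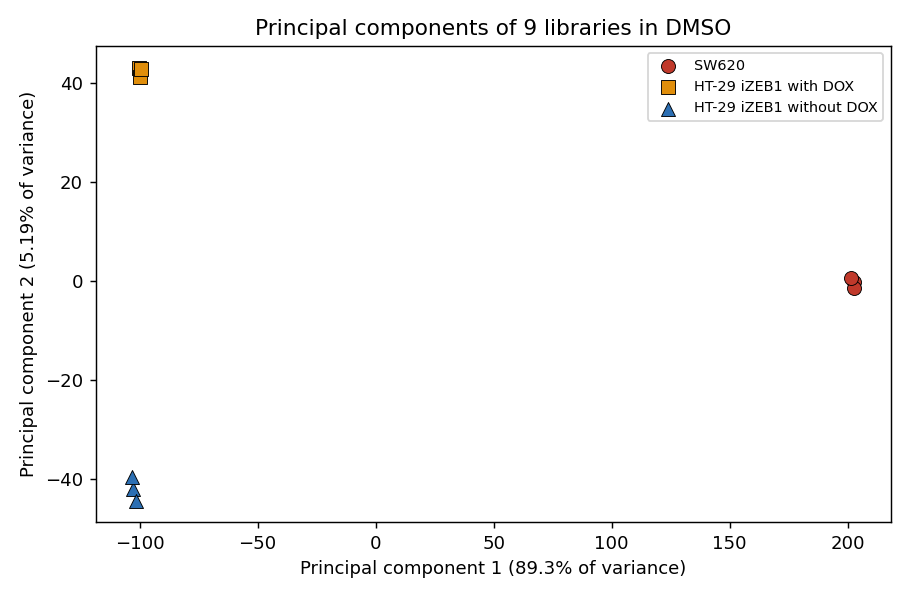
Principal components 1 (x axis) and 2 (y axis) of log2 CPM in the 9 DMSO libraries, 1 point for each library, with the share of variance on each axis. SW620 lies at 201 to 203 on the first component and both HT-29 iZEB1 groups near -100, and DOX moves HT-29 iZEB1 mainly along the second component.

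ZEB1 (chr10:31318495-31529814, plus strand, GENCODE 29 on GRCh38, as all gene positions below) checked the labels. It stood at 19.7, 20.4 and 24.4 CPM in the SW620 libraries, at 372, 385 and 376 CPM with DOX and at 7.9, 7.38 and 10.4 CPM without DOX. No library of one group overlapped another group. Induced HT-29 iZEB1 thus held far more ZEB1 mRNA than SW620, which was 17.6-fold lower (log2 -4.13, SE 0.0926, adjusted p = 1.32e-22, edgeR). SW620 was 2.52-fold above the uninduced cells (adjusted p = 6.48e-12). A gene count does not separate transcripts of the expression system from those of the resident gene.

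Most of the EMT transcription factors tested were higher in SW620. Of 16 factors, 11 were tested, 7 were higher and 2 lower in SW620 than with DOX, and 2 were not called different. The shares over all genes were 41.6% higher and 36.8% lower. SNAI2 (Slug), a repressor of epithelial genes, had 13, 12.2 and 12.4 CPM in SW620 and 0 counts in all 6 HT-29 iZEB1 libraries, at least 499-fold higher in SW620 than with DOX (a floor of 3 counts over the group is set for 0 counts here and below). SNAI1 (Snail) had 11.4, 12 and 10.4 CPM in SW620, 0.94, 1.23 and 0.832 with DOX and 1.67, 1.95 and 2.08 without DOX, 11.2-fold higher in SW620 than with DOX (adjusted p = 6.64e-16). SNAI1 thus lay above both HT-29 iZEB1 groups in SW620 and was lower with DOX than without (log2 -0.93, adjusted p = 0.000533).

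Some factors moved towards SW620 with DOX. ETS1, a member of the ETS family, had 101, 95.8 and 107 CPM in SW620, 23.3, 19.3 and 21.6 with DOX and 9.23, 7.78 and 8.11 without DOX, so a 4.74-fold difference remained after a 2.56-fold rise with DOX. SOX4, which promotes EMT in several carcinomas, had 221, 207 and 228 CPM in SW620, 219, 213 and 227 with DOX and 85.4, 82.2 and 82.5 without DOX. SW620 and induced libraries overlapped for SOX4, with a log2 difference of -0.01 (SE 0.052, adjusted p = 0.925). FOXQ1, a forkhead factor, went away from SW620, at 296 CPM in SW620, 123 with DOX and 232 without DOX.

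Junction genes remained lower in SW620 than in induced HT-29 iZEB1. All 27 genes of adherens and tight junctions were tested. Of these, 22 were lower in SW620 than with DOX and 5 were higher, against 36.8% lower and 41.6% higher over all genes. The median log2 difference of the list was -1.24 with DOX and -1.78 without DOX, against 0.09 and 0.06 over all genes. DOX lowered 17 and raised 6 of them, against 20.3% and 18.1% over all genes.

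CDH1 (chr16:68737225-68835548, plus strand), which encodes E-cadherin of adherens junctions, had 11.2, 7.86 and 10.8 CPM in SW620, 229, 229 and 239 with DOX and 465, 456 and 487 without DOX. The groups did not overlap, with the induced cells between the other two. SW620 was 23.3-fold lower than with DOX (log2 -4.54, SE 0.0842, adjusted p = 3.2e-24) and 47.1-fold lower than without DOX. CLDN2, a pore-forming claudin, had 0.102 CPM in SW620, 240.3 with DOX and 189 without DOX, and so rose with DOX away from SW620. TJP3, a scaffold of tight junctions, had 1.05 CPM in SW620, 44.3 with DOX and 65.1 without DOX. CLDN7 had 2.56 CPM in SW620, 41.1 with DOX and 129.8 without DOX, a fall with DOX that covered part of the difference. Claudin genes did not all go one way, since CLDN1 was higher in SW620, at 147 CPM against 66.1 with DOX and 49 without DOX. CDH17 (liver-intestine cadherin) had 2 counts in SW620 over 3 libraries, 1004 with DOX and 140 without DOX. Its rise with DOX to 8.42 CPM took it away from SW620, and the count ratio of induced HT-29 iZEB1 to SW620 was 496 (95% counting interval 137 to 4105).

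EPCAM (chr2:47345158-47387601, plus strand), an epithelial adhesion protein, passed the SW620 level. It had 325, 317 and 327 CPM in SW620, 198, 189 and 209 with DOX and 666, 676 and 621 without DOX. SW620 lay between the HT-29 iZEB1 groups without overlap, 1.62-fold above the induced cells (log2 0.70, SE 0.0516, adjusted p = 4.97e-12) and 2.03-fold below the uninduced ones.

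Desmosomal genes lay on both sides of SW620. Of 12, 11 were tested, 7 were higher and 4 lower in SW620 than with DOX, while 2 were higher and 7 lower than without DOX. The shares over all genes were 41.6% higher and 36.8% lower with DOX, and 40.1% and 36.5% without DOX. PKP3, a plakophilin of desmosome plaques, had 116, 115 and 102 CPM in SW620, 28.6, 33.9 and 33.1 with DOX and 115, 119.9 and 100.5 without DOX. Libraries of SW620 and of uninduced cells overlapped, and the induced cells lay 3.47-fold below SW620 (adjusted p = 4.54e-17). PPL (periplakin) had 95.5 CPM in SW620, 28.4 with DOX and 103 without DOX. DSP (desmoplakin) had 270.2 CPM in SW620, 110.1 with DOX and 159 without DOX. DOX thus took PKP3 and PPL from about the SW620 level to below it, and DSP farther below it. The desmosomal cadherin DSC2 had 0.45 CPM in SW620, 47.6 with DOX and 42.6 without DOX, and plakoglobin (JUP) had 68.9, 299.8 and 409 CPM in the same order.

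Genes of the epithelial surface and of polarised transport fell with DOX nearly without exception, and most of them still lay above SW620. All 25 were tested, and 20 were lower in SW620 than with DOX, 13 of them by at least 4-fold, with 5 higher. The shares over all genes were 36.8% lower, 10.7% lower by at least 4-fold and 41.6% higher. Against the uninduced cells 22 were lower in SW620. DOX lowered 24 of them and raised 0, against 20.3% and 18.1% over all genes. The list was written with earlier results of these data known, so its counts are a description. The median log2 difference was -2.18 with DOX and -4.43 without DOX. The root mean square difference of this list was 4.47 with DOX and 6.33 without DOX.

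RAB25, a small GTPase of apical recycling, had 0.281, 0.103 and 0.201 CPM in SW620, 27.9, 31.9 and 30.1 with DOX and 144, 139 and 145 without DOX. MAL2, which works in transcytosis, had 0.119 CPM in SW620, 319 with DOX and 1041 without DOX. In both genes DOX took away most of the HT-29 level and left it far above SW620, by 151-fold for RAB25 and 2616-fold for MAL2. PRSS8 (prostasin), a membrane serine protease, had 0.0598 CPM in SW620, 10.6 with DOX and 68.3 without DOX. TMPRSS4, another such protease, had 1 count in SW620, 5.49 CPM with DOX and 106 CPM without DOX. S100A14 fell past SW620, at 4.87 CPM in SW620, 1.95 with DOX and 43.9 without DOX.

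Regulators of epithelial genes were mostly lower in SW620. Of 15 tested, 11 were lower and 2 higher in SW620 than with DOX, against 36.8% and 41.6% over all genes. GRHL2, a grainyhead factor that maintains epithelial genes, had 0.051, 0.0514 and 0.101 CPM in SW620, 33.7, 33.1 and 34.1 with DOX and 114, 112 and 113 without DOX. It fell 3.36-fold with DOX, and SW620 was a further 472-fold lower (adjusted p = 1.79e-24). ESRP1, which directs epithelial splicing, had 73.4, 70.4 and 74.3 CPM in SW620, 75.3, 77 and 82.7 with DOX and 328, 342 and 339 without DOX. The log2 difference of ESRP1 between SW620 and induced cells was -0.11 (SE 0.0516, adjusted p = 0.0598), against -2.21 from the uninduced cells. ESRP2 fell past SW620, at 88.7 CPM in SW620, 39.2 with DOX and 115 without DOX. The ETS factors ELF3 and EHF were not called changed with DOX (adjusted p = 0.367 and 0.899). ELF3 had 17.9 CPM in SW620, 134 with DOX and 141 without DOX, and EHF had 46.5, 386 and 389 CPM in the same order.

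Keratin genes were mostly higher in SW620 than in induced cells. Of 15, 12 were tested, 10 were higher and 1 lower, with a median log2 difference of 2.60, against 41.6% and 36.8% over all genes. Against uninduced cells 8 were higher and 3 lower, with a median of 1.14, beside 40.1% and 36.5% over all genes. DOX lowered 8 and raised 0 of them, against 20.3% and 18.1% over all genes. KRT8 and KRT18, the simple-epithelium pair, had 3779 and 1412 CPM in SW620, 2918 and 887 with DOX, and 5662 and 1749 without DOX. KRT19 had 709 CPM in SW620, 228 with DOX and 527 without DOX. KRT80 had 189 CPM in SW620, 32.5 with DOX and 79.8 without DOX. The 1 keratin lower in SW620 was KRT20 (chr17:40875941-40885227, minus strand), a marker of mature colonocytes, with 0.23, 0.283 and 0.0503 CPM in SW620, 99, 104 and 102 with DOX and 164, 154 and 159 without DOX. The difference was 536-fold from the induced and 836-fold from the uninduced cells. KRT81 belongs to a family of closely similar hair keratins, so that its 33.7 CPM in SW620, 0.0841 with DOX and 0.226 without DOX are uncertain.

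DOX raised most mesenchymal genes, by little against their distance from SW620. Of 29 genes on the list, 23 were tested. In SW620 17 were higher than with DOX and 6 lower, against 41.6% and 36.8% over all genes. DOX raised 16 of them and lowered 1, against 18.1% raised and 20.3% lowered over all genes. The median log2 difference was 1.81 with DOX and 3.33 without DOX.

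VIM (chr10:17228259-17237593, plus strand), which encodes the intermediate filament vimentin, had 241, 249 and 244 CPM in SW620, 0.432, 1.13 and 1.03 with DOX and 0.34, 0.17 and 0.45 without DOX. It rose 2.68-fold with DOX (adjusted p = 0.00049) and still lay 282-fold below SW620 (log2 8.14, SE 0.131, adjusted p = 2.32e-25). FN1 (fibronectin) had 59.4 CPM in SW620, 4.32 with DOX and 1.36 without DOX. TNC (tenascin C) had 221 CPM in SW620, 2.54 with DOX and 1.68 without DOX. LGALS1 (galectin 1) had 299 CPM in SW620, 49.6 with DOX and 13.8 without DOX, and EMP3, a small membrane protein, had 39.1, 20.2 and 2 CPM. For VIM, FN1 and TNC DOX covered a small part of the difference, for LGALS1 and EMP3 a larger one. AXL, a receptor tyrosine kinase of mesenchymal cells, had 79 CPM in SW620, 22.6 with DOX and 7.86 without DOX. QKI, an RNA-binding protein of mesenchymal splicing, had 909 counts in SW620 over 3 libraries and 0 in all 6 HT-29 iZEB1 libraries, at least 306-fold higher in SW620 than with DOX.

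Some genes of the same list were higher in HT-29 iZEB1 than in SW620. NT5E (CD73), an ectonucleotidase, had 0.204, 0.154 and 0.151 CPM in SW620, 360.1, 332 and 344 with DOX and 197, 205 and 202 without DOX, so DOX took it farther from SW620. NNMT, a nicotinamide methyltransferase, had 0 counts in SW620, 62.5 CPM with DOX and 64.6 CPM without DOX. CD44, a hyaluronan receptor, had 22 CPM in SW620, 237 with DOX and 234 without DOX. The 6 mesenchymal genes lower in SW620 also included S100A4, at 949 CPM in SW620, 1412 with DOX and 1185 without DOX.

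**Figure D2:**
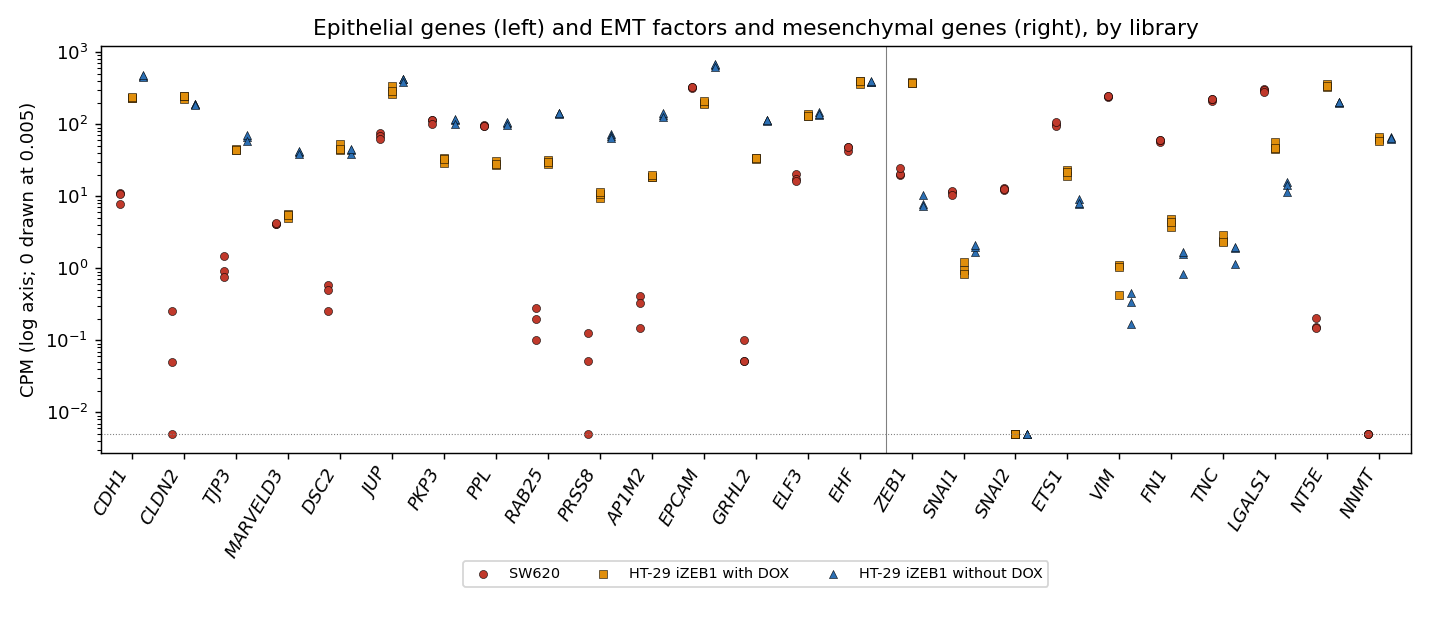
Level of epithelial genes (left) and of EMT factors and mesenchymal genes (right) in CPM on a log axis, 1 point for each library, with 0 drawn at 0.005 CPM. CDH1, RAB25 and GRHL2 keep induced HT-29 iZEB1 between SW620 (lowest) and uninduced cells, EPCAM, PKP3 and PPL fall below SW620 with DOX, and VIM stays 282-fold below SW620 with DOX.

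Of 17 contractile and cytoskeletal genes tested, 11 were higher and 5 lower in SW620 than with DOX, against 41.6% higher and 36.8% lower over all genes. CALD1 (caldesmon), which binds actin and myosin, had 150.4 CPM in SW620, 0.117 with DOX and 0.151 without DOX, and DOX did not change it by the test (adjusted p = 0.722). MYL9, a myosin light chain, had 34.9 CPM in SW620, 1.39 with DOX and 0.471 without DOX. SYNPO (synaptopodin), an actin-binding protein, rose away from SW620, at 0.806 CPM in SW620, 7.03 with DOX and 0.452 without DOX. MYLK, the myosin light chain kinase, did so as well, at 0.899 CPM in SW620, 12.3 with DOX and 5.33 without DOX.

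Matrix genes were called in about the shares seen over all genes. Of 30 collagen, laminin and matrix genes, 24 were tested, 12 were higher and 10 lower in SW620 than with DOX, against 41.6% higher and 36.8% lower over all genes. COL6A1 had 128 CPM in SW620, 3.56 with DOX and 1.19 without DOX. FBLN1 (fibulin 1) had 52.9 CPM in SW620, 0.527 with DOX and 0.245 without DOX. In the other direction, COL17A1, a hemidesmosomal collagen, had 0.432 CPM in SW620, 51.1 with DOX and 130.1 without DOX. The proteoglycan AGRN had 183 CPM in SW620, 1219.6 with DOX and 1255 without DOX. The interstitial collagen COL1A1 was below 1 CPM in all 3 groups, at 0.994, 0.471 and 0.866 CPM.

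Integrin subunits, the cell's receptors for matrix, differed between the lines in both directions. Of 16 tested, 6 were higher and 9 lower in SW620 than with DOX, against 41.6% and 36.8% over all genes. DOX raised 4 and lowered 4, against 18.1% and 20.3% over all genes. ITGA5, the fibronectin receptor subunit, had 3569 counts in SW620 over 3 libraries and 0 in all 6 HT-29 iZEB1 libraries, at least 1203-fold higher in SW620 than with DOX. ITGA7 had 69.1 CPM in SW620, 3.19 with DOX and 2.24 without DOX. ITGA3 was lower in SW620, at 31.2 CPM against 306 with DOX and 298 without DOX. ITGAV had 25.5 CPM in SW620, 221 with DOX and 157 without DOX, so it too went away from SW620.

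Few genes reached the SW620 level. A total of 1455 genes differed at least 4-fold between SW620 and uninduced HT-29 iZEB1, with a call and at least 10 CPM in the higher group. Of these, 14 lay within 0.5 log2 of SW620 with DOX, 8 of them lower and 6 higher in SW620 than in uninduced cells. The 10 with the widest starting difference are described here, and since this very closeness chose them, no test is given. C1orf210 (chr1:43281883-43285617, minus strand), a membrane protein gene, had 0.714, 1.18 and 0.855 CPM in SW620, 0.965, 1.36 and 1.54 with DOX and 19.6, 19.8 and 20.1 without DOX. ITGB6 (chr2:160099666-160200313, minus strand), the epithelial partner of ITGAV, had 2.4, 2.36 and 2.77 CPM in SW620, 3.86, 2.77 and 3.18 with DOX and 33.4, 30.3 and 33.1 without DOX. MARVELD3 (chr16:71626161-71642114, plus strand), a tight junction protein, had 4.06, 4.06 and 4.25 CPM in SW620, 5.05, 5.67 and 5.56 with DOX and 41, 41.8 and 38.5 without DOX. In these 3 genes the induced libraries lay close to SW620 and all uninduced libraries were well above both.

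KDF1, which holds keratinocyte proliferation in check, had 4.85 CPM in SW620, 4.4 with DOX and 27.2 without DOX, and IQANK1 had 14.5, 19.8 and 92.6 CPM. The other 5 rose to the SW620 level. ETV1 (chr7:13891228-13991425, minus strand), an ETS factor, had 37.1, 39.2 and 44.4 CPM in SW620, 39.5, 36.1 and 35.6 with DOX and 7.42, 6.45 and 7.49 without DOX. CYP27A1, the sterol 27-hydroxylase, had 10.6 CPM in SW620, 9.73 with DOX and 1.37 without DOX. CYBRD1, a ferric reductase, had 16.3 CPM in SW620, 16.2 with DOX and 2.72 without DOX. RAMP1, a partner of the calcitonin-like receptor, had 13.2, 11.8 and 1.87 CPM in the same order, and SLC1A7, a glutamate transporter, had 11.7, 9.77 and 2.34 CPM. The remaining log2 differences between SW620 and induced cells ran from -0.49 for C1orf210 to 0.26 for SLC1A7.

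Promoters of genes that DOX took towards SW620 were searched for an E-box motif that ZEB1 is known to bind. The motif searched was CACCTG, or CAGGTG on the other strand, in the 250 bases before the RefSeq start of each gene. These sequences are shown because KDF1, C1orf210 and ITGB6 are the gap-closing genes with a match, RAB25 fell and stayed above SW620, and VIM has no match in the window. They run 5′ to 3′ on the strand of the gene, end at the base before the start, and are credited to RefSeq on GRCh38.p14. Capitals mark the motif. KDF1 is from the minus strand (chr1:26960469-26960718), as are C1orf210 (chr1:43285582-43285831) and ITGB6 (chr2:160200273-160200522), and RAB25 (chr1:156060910-156061159) and VIM (chr10:17227991-17228240) are from the plus strand.
KDF1: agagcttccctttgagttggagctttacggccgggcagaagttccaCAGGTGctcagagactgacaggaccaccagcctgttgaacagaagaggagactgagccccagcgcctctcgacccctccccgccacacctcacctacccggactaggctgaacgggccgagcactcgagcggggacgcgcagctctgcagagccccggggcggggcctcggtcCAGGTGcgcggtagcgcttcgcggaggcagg
C1orf210: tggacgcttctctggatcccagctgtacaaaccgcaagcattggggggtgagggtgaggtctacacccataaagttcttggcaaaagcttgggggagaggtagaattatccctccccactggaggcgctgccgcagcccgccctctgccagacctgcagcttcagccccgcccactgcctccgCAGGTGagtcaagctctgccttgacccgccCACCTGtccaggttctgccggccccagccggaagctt
ITGB6: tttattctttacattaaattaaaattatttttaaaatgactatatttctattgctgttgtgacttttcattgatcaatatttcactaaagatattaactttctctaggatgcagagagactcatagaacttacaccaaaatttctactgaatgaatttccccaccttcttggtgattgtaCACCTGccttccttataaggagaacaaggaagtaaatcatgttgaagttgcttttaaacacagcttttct
RAB25: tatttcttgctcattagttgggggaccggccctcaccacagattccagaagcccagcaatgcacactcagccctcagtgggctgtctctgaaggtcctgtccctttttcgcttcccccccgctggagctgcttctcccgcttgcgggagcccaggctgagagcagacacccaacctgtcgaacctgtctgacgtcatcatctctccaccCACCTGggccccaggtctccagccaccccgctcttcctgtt
VIM: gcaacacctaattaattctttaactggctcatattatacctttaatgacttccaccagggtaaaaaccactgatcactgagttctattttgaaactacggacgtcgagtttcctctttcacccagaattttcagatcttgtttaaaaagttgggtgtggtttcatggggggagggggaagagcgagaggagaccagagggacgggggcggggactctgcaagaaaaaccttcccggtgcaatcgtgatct

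The motif began 204 and 31 bases before the start of KDF1, 67 and 37 before that of C1orf210, 70 before that of ITGB6 and 41 before that of RAB25. Of 27195 promoters in the table, 17.5% held at least 1 match, and of 11844 promoters of genes tested, 16.7% did. Among the epithelial lists together, 22 of 49 promoters found held a match (44.9%, of 90 genes tested), and among the mesenchymal, actomyosin and EMT factor lists 3 of 38 did (7.89%, of 51 genes tested). Of the 10 gap-closing genes, 7 had a promoter in the table and 3 of these held a match. The gene lists were written with earlier results of these data known, so these shares are a description. A match is a run of letters and not a measured binding site.

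Other genes went away from SW620 with DOX. Under the rule for these, 85 genes changed at least 2-fold with DOX and ended at least 4-fold from SW620 and farther than before, 58 of them lower and 27 higher in SW620. The 10 with the widest change with DOX are again a description without a test. FGF19 (chr11:69698232-69704642, minus strand), a hormone-like growth factor of the gut, had 175, 170.0 and 158 CPM in SW620, 6.1, 7.85 and 7.96 with DOX and 119, 117 and 114 without DOX. BMF (chr15:40087890-40108892, minus strand), a pro-apoptotic BH3-only protein, had 0.638, 0.617 and 0.654 CPM in SW620, 66.4, 77.3 and 67.6 with DOX and 13.4, 11.7 and 13 without DOX. GJB1 (connexin 32) had 133, 131 and 124 CPM in SW620, 3.84, 4.26 and 3.28 with DOX and 26.9, 22.8 and 21.2 without DOX. SW620 was the highest group for FGF19 and GJB1, which DOX lowered, and the lowest for BMF, which DOX raised.

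TP53INP1, a stress-induced p53 target, had 0.653 CPM in SW620, 24.6 with DOX and 3.47 without DOX. CDKN1C (p57), a cyclin-dependent kinase inhibitor, had 4 CPM in SW620, 23.1 with DOX and 5.03 without DOX. PTGS1 (cyclooxygenase 1) had 2.76 CPM in SW620, 48.1 with DOX and 9.34 without DOX, and FCGBP, a mucus protein, had 0.281, 12.6 and 2.09 CPM. CDCP1, a surface glycoprotein, fell with DOX, at 162 CPM in SW620, 12.9 with DOX and 63.4 without DOX, as did SYTL1 at 16.3, 3.28 and 14.4 CPM. TMCC1-AS1, an antisense transcript whose reads cannot be told apart from those of its partner gene, had 3.04, 15.1 and 3.07 CPM.

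**Figure D3:**
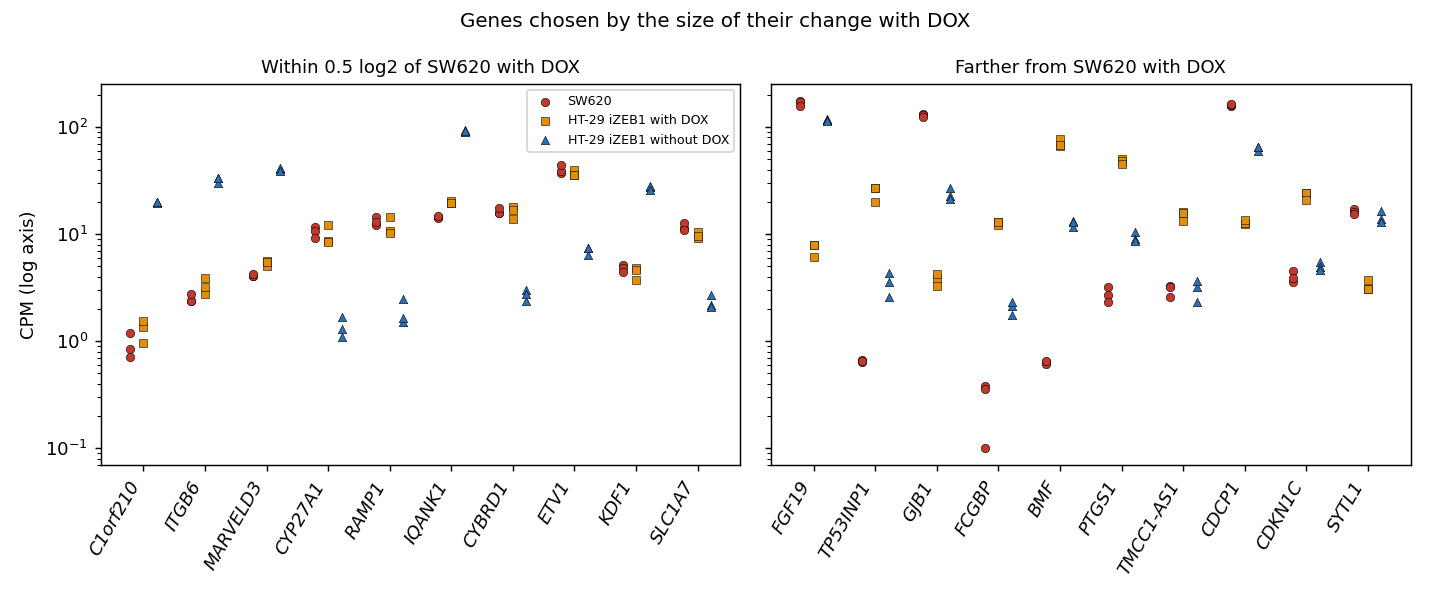
Level in CPM on a log axis, 1 point for each library, of 10 genes chosen because DOX brought them to within 0.5 log2 of SW620 (left) and of 10 chosen because DOX took them away from it (right). On the left the SW620 and induced points lie together and the uninduced ones apart, as for ITGB6 at 2.51, 3.27 and 32.2 CPM, and on the right the uninduced points lie between the other two groups or beside SW620.

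The widest differences were genes on in one line and at or near 0 in the other, and DOX did not switch them. Among genes higher in SW620, LCP1 (L-plastin), an actin bundler of blood cells and many carcinomas, had 278, 274 and 286 CPM in SW620, 0 counts with DOX and 2 without DOX, at least 11106-fold higher in SW620 than with DOX. FGF3, a fibroblast growth factor that neighbours FGF19 on chromosome 11, had 184 CPM in SW620, 0 counts with DOX and 2 without DOX. HDGFL3, STC2, EPDR1, TMEM47, WIPF1, NID1 and CDH13 had 0 counts in all 6 HT-29 iZEB1 libraries and 48.6 (CDH13) to 94.9 (HDGFL3) CPM in SW620. PPP2R2C had 72.1 CPM in SW620, 0 counts with DOX and 6 without DOX.

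Among genes lower in SW620, ALDH1A1, an aldehyde dehydrogenase of retinoid metabolism, had 3 counts in SW620, 1927, 1769 and 1751 CPM with DOX and 1286, 1196 and 1252 CPM without DOX. The count ratio of induced HT-29 iZEB1 to SW620 was 71321 (95% counting interval 24404 to 345844). CFTR, the chloride channel of intestinal crypts, had 0 counts in SW620, 189 CPM with DOX and 98.5 CPM without DOX. A further 9 genes named by size had 0 counts in SW620 as well. They are LIPG (endothelial lipase), SLITRK6, DAPK1 (a death-associated kinase), IFI44 (an interferon target), HCAR1 (the lactate receptor), the long noncoding CASC19, ANXA10, NNMT and UGT1A10. They had 62.5 (NNMT) to 201 (LIPG) CPM with DOX. UGT1A10 shares exons with other UGT1A genes, so its count is uncertain. The floor allows each of them at most 3 counts over the SW620 libraries, which is counting error only.

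Most lists were about as far from SW620 with DOX as without. The median log2 difference with DOX ran from -3.92 for interferon targets among lists of at least 20 tested genes, through -2.18 for the epithelial surface, to 1.81 for mesenchymal genes. The 3 lists whose root mean square distance was smaller with DOX by the widest ratio were the epithelial surface (4.47 with DOX, 6.33 without DOX), the CEACAM adhesion genes (2.65 and 3.86) and the epithelial regulators (3.47 and 4.26). For cell cycle genes it was larger with DOX, 0.90 against 0.56 without DOX.

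**Figure D4:**
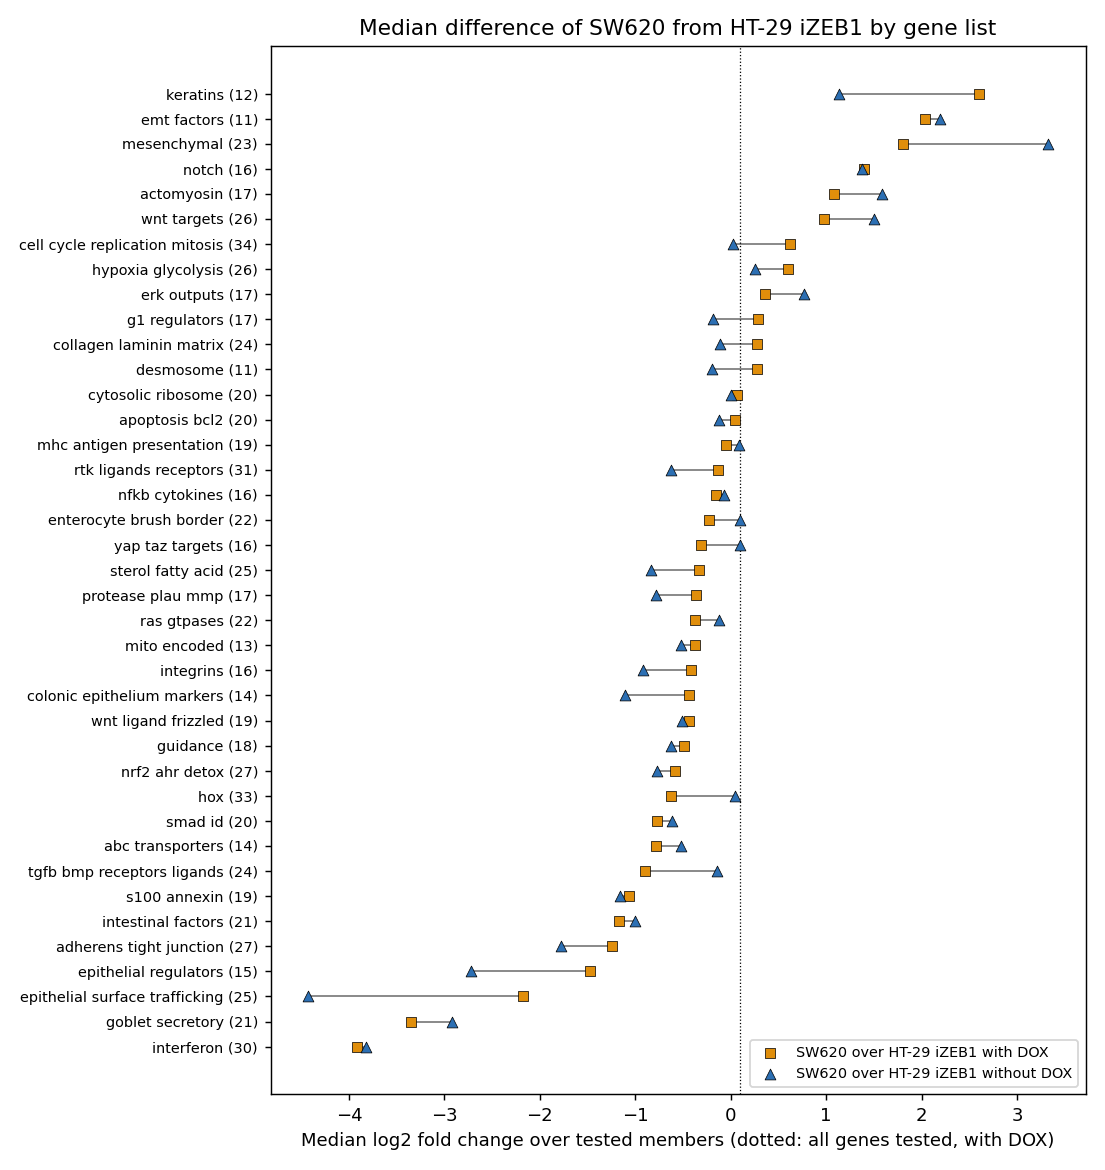
Median log2 fold change of each gene list for SW620 over HT-29 iZEB1 with DOX (orange) and without DOX (blue), with the number of genes tested in brackets and a dotted line at the median of all genes tested. The epithelial surface list lies at -2.18 with DOX and -4.43 without DOX, the interferon list stays near -3.92, and the cell cycle list lies at 0.62 with DOX.

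Colonic identity genes differed between the lines in both directions. Of 21 intestinal transcription factors tested, 7 were higher and 13 lower in SW620 than with DOX, against 41.6% and 36.8% over all genes. At least 4-fold lower were 9 and at least 4-fold higher 5, against 10.7% and 13.2% over all genes. CDX2 (chr13:27962137-27971139, minus strand), the homeobox factor of intestinal identity, had 8.57, 9.56 and 9.38 CPM in SW620, 0.432, 0.462 and 0.392 with DOX and 0.227, 0.396 and 0.394 without DOX. It was 21.3-fold higher in SW620 than with DOX (adjusted p = 2.47e-15), and DOX did not move it by the test (adjusted p = 0.505). SOX2, a stem cell factor, had 21.3 CPM in SW620, 0.117 with DOX and 0.0565 without DOX. FOXA1, a pioneer factor of endodermal epithelium, had 4 counts in SW620, 227 CPM with DOX and 157 CPM without DOX, while its relative FOXA2 was higher in SW620, at 68.3 CPM against 5.7 with DOX and 2.11 without DOX. HNF4A differed little, 1.18-fold between SW620 and induced cells (adjusted p = 0.000169), at 75.5, 89.3 and 68.3 CPM.

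Goblet genes were mostly lower in SW620, and enterocyte genes were split. Of 22 enterocyte genes tested, 10 were lower and 7 higher than with DOX. Of 21 goblet and secretory genes, 16 were lower and 2 higher, with a median of -3.35 log2. The shares over all genes were 36.8% lower and 41.6% higher. LGALS4 (galectin 4) had 0.246 CPM in SW620, 360.4 with DOX and 472 without DOX. VIL1 (villin), an actin bundler of microvilli, fell away from SW620 with DOX, at 199.7 CPM in SW620, 22.1 with DOX and 93 without DOX. AGR2, a disulfide isomerase of mucus cells, had 0.11 CPM in SW620, 204 with DOX and 165 without DOX. LYZ (lysozyme) had 3.38 CPM in SW620, 1759.8 with DOX and 1339 without DOX. TFF3, a trefoil peptide, rose towards SW620, at 24.5 CPM in SW620, 10.7 with DOX and 2.03 without DOX. Of the 5 CEACAM genes tested, 3 were lower in SW620 and 1 higher than with DOX, and CEACAM1 had 22.1 CPM in SW620, 244 with DOX and 335 without DOX. Reads of these related genes may be shared.

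Several WNT target genes rose with DOX. Of 26 tested, 15 were higher and 9 lower in SW620 than with DOX, against 41.6% higher and 36.8% lower over all genes. At least 4-fold differences were called for 11 higher and 4 lower, against 13.2% and 10.7% over all genes. DOX raised 11 and lowered 4, against 18.1% and 20.3% over all genes. NKD1, a feedback inhibitor of WNT signalling, had 4175, 4193 and 4295 CPM in SW620, 2.67, 2.33 and 2.23 with DOX and 0.283, 0.0565 and 0.0563 without DOX. The groups did not overlap, and after a 17.8-fold rise with DOX (adjusted p = 9.32e-10) SW620 was still 1750.5-fold higher. NOTUM, an enzyme that inactivates WNT ligands, had 804 CPM in SW620, 2.57 with DOX and 0.151 without DOX. AXIN2, another feedback inhibitor, had 276, 268 and 268 CPM in SW620, 117, 122 and 128 with DOX and 62.9, 54.4 and 58.3 without DOX, with a log2 difference of SW620 of 1.14 from the induced and 2.21 from the uninduced cells. LGR5, a crypt stem cell receptor, rose past SW620, at 64.2 CPM in SW620, 78.2 with DOX and 40.1 without DOX. APCDD1 had 45.3 CPM in SW620 and 0 counts in all HT-29 iZEB1 libraries. MYC went away from SW620, at 399 CPM in SW620, 123 with DOX and 208 without DOX. SOX9 and ZNRF3 were not called different between SW620 and induced cells (adjusted p = 0.513 and 0.929).

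Genes of TGF-β and BMP signalling were mostly lower in SW620 than in induced cells. Of 24 ligands, receptors and modulators tested, 16 were lower and 6 higher, against 36.8% and 41.6% over all genes. Against uninduced cells 12 were lower and 7 higher, beside 36.5% and 40.1% over all genes. The median log2 difference was -0.90 with DOX and -0.15 without DOX. DOX raised 12 and lowered 1, against 18.1% and 20.3% over all genes. The ligand INHBB (activin B) had 191 CPM in SW620, 0.0673 with DOX and 0.0188 without DOX. The ligand BMP7 had 114 CPM in SW620, 0.245 with DOX and 0.113 without DOX, and BMP4 was on the other side, at 192, 804 and 574 CPM. The receptor TGFBR2 rose away from SW620, at 99.4, 93.4 and 102 CPM in SW620, 183, 194 and 191 with DOX and 105, 112 and 109.9 without DOX. BMPR2 had 29.6 CPM in SW620, 185 with DOX and 112 without DOX, and the co-receptor ENG had 2.28, 27.6 and 16.3 CPM.

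Among SMAD and ID genes, 8 of 20 were higher and 12 lower in SW620 than with DOX, against 41.6% and 36.8% over all genes. SMAD4 (chr18:51028394-51085045, plus strand), the common mediator of TGF-β and BMP signals, had 0.332, 0.617 and 0.805 CPM in SW620, 13.8, 13.1 and 14.7 with DOX and 12.4, 12.6 and 14.2 without DOX. It was 23.6-fold lower in SW620 than with DOX (adjusted p = 2.42e-18). BAMBI, a decoy receptor, had 63.7 CPM in SW620, 0.227 with DOX and 0.141 without DOX. SMAD7, the inhibitory SMAD, had 5.83 CPM in SW620, 24.3 with DOX and 19.5 without DOX. ATOH8, a factor downstream of BMP, rose with DOX away from SW620, at 0.626 CPM in SW620, 10.2 with DOX and 0.207 without DOX.

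Receptor tyrosine kinases and their ligands lay on both sides, with more of them lower than higher in SW620. Of 31 tested, 12 were higher and 15 lower in SW620 than with DOX, against 41.6% higher and 36.8% lower over all genes. EGFR, the epidermal growth factor receptor, had 0.102, 0.257 and 0.126 CPM in SW620, 161, 154 and 152 with DOX and 144, 151 and 168 without DOX. The HT-29 iZEB1 groups overlapped, and SW620 was 947-fold below the induced cells. FGFR1 was on the other side, with 111 CPM in SW620, 4 counts with DOX and 0.141 CPM without DOX, while FGFR2 had 2 counts in SW620, 23.4 CPM with DOX and 38.8 CPM without DOX. EPHA4, an ephrin receptor, had 36.6 CPM in SW620, 0.0334 with DOX and 0.0282 without DOX. The EGFR ligand AREG had 6.08 CPM in SW620, 33.1 with DOX and 64.8 without DOX. Genes that report ERK activity also fell on both sides, 9 of 17 higher and 6 lower in SW620. FOSL1, an AP-1 subunit, had 139 CPM in SW620, 11.6 with DOX and 17.9 without DOX.

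Of 16 Notch pathway genes, 9 were higher and 7 lower in SW620 than with DOX, against 41.6% and 36.8% over all genes. MFNG, a glycosyltransferase that modifies Notch receptors, had 173 CPM in SW620, 0.711 with DOX and 0.667 without DOX. The receptor NOTCH2 had 9.21 CPM in SW620, 139 with DOX and 118 without DOX. The ligand JAG1 rose towards SW620, at 85.7 CPM in SW620, 31.4 with DOX and 15.7 without DOX, and the ligand JAG2 fell away from it, at 115, 8.79 and 21.7 CPM. Of 19 WNT ligands, frizzled receptors and their antagonists, 6 were higher and 11 lower, with FZD10 at 2618 counts in SW620 and 0 in all HT-29 iZEB1 libraries. Among 18 guidance genes, ROBO1 had 313 CPM in SW620, 0.245 with DOX and 0.301 without DOX, and SEMA3C had 0.432, 125 and 85.7 CPM.

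Interferon targets were lower in SW620 throughout. All 30 were lower in SW620 than with DOX, against 36.8% lower over all genes. By at least 4-fold 25 of them were lower, against 10.7% over all genes. The median log2 difference was -3.92 with DOX and -3.82 without DOX. IFIT1, an antiviral RNA sensor, had 1.56, 0.822 and 1.26 CPM in SW620, 160.5, 267 and 147 with DOX and 105, 131 and 161 without DOX. IFI27 had 0.297 CPM in SW620, 508 with DOX and 432 without DOX. CMPK2 and RSAD2 had 0 counts in SW620, against 25.7 and 13.5 CPM with DOX and 23.7 and 9.22 CPM without DOX. Replicate 2 with DOX was the highest of its group for IFIT1. With DOX against without, 9 of the 30 rose and 0 fell, against 18.1% and 20.3% over all genes. Without that library 2 rose and 9 fell (median -0.13 log2), so the direction with DOX depends on it. Without replicate 3 with DOX 15 rose and 0 fell, and without replicate 1 of the uninduced cells 2 rose and 0 fell. The lower level in SW620 held for all 30 without that library.

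Of 19 genes of antigen presentation tested, 5 were higher and 8 lower in SW620 than with DOX, and without replicate 2 with DOX the counts were 8 and 7, and without replicate 3 with DOX 3 and 8. HLA-E had 63.1, 56.7 and 55.7 CPM in SW620, 199, 254 and 206 with DOX and 131, 132 and 133 without DOX. ERAP2, a peptide-trimming protease, had 4.33 CPM in SW620, 79 with DOX and 86.8 without DOX. HLA genes are closely related and their counts are uncertain. Among 16 NF-κB genes and cytokines, 5 were higher and 8 lower. The shares over all genes, for both of these lists, were 41.6% higher and 36.8% lower. IL18 had 0.679 CPM in SW620, 9.58 with DOX and 5.26 without DOX.

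Cell cycle genes fell with DOX, and more of them lay below SW620 with DOX than without. Of 34 replication and mitosis genes, 24 were higher and 6 lower in SW620 than with DOX, against 13 higher and 12 lower than without DOX. The shares over all genes were 41.6% higher and 36.8% lower with DOX, and 40.1% and 36.5% without DOX. The median log2 difference was 0.62 with DOX and 0.02 without DOX, with members on both sides in each case. DOX lowered 26 and raised 0 of them (25 and 2 without replicate 2 with DOX), against 20.3% and 18.1% over all genes. PCNA, the replication clamp, had 585, 604 and 597 CPM in SW620, 160.1, 170.2 and 155 with DOX and 297, 321 and 311 without DOX. MCM3, a subunit of the replicative helicase, had 538 CPM in SW620, 162 with DOX and 317 without DOX. MCM2 had 218, 222 and 217 CPM in SW620, 104, 139 and 107 with DOX and 221, 247 and 216 without DOX, so that SW620 and uninduced libraries overlapped (adjusted p = 0.492) and the induced ones lay below both. TOP2A and BUB1 of mitosis were not called different between SW620 and induced cells (adjusted p = 0.485 and 0.96), and CCNA2 (cyclin A2) was lower in SW620, at 62.8, 109 and 132 CPM. In bulk libraries, fewer cells in cycle and less of these RNAs per cell cannot be told apart.

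Among 17 regulators of G1, 10 were higher and 6 lower in SW620 than with DOX, against 41.6% and 36.8% over all genes. CCND1 (cyclin D1) had 466 CPM in SW620, 106 with DOX and 156 without DOX. The inhibitor CDKN1A (p21) had 1.48 CPM in SW620, 5.92 with DOX and 5.08 without DOX. RB1 had 33.7 CPM in SW620, 130.4 with DOX and 119 without DOX. Of 20 apoptosis genes, 9 were higher and 8 lower, near the shares over all genes. Besides BMF, the BH3-only genes BBC3 (PUMA) and BIK stood on opposite sides, BBC3 at 2.63 CPM in SW620, 58.1 with DOX and 32 without DOX, and BIK at 24.7, 0.229 and 0.489 CPM.

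Metabolic and transport genes differed between the lines in both directions. The shares over all genes, for each list here, were 41.6% higher and 36.8% lower in SW620 than with DOX. Of 26 hypoxia and glycolysis genes, 17 were higher and 7 lower in SW620 than with DOX. The glucose transporter SLC2A3 (GLUT3) had 100.4 CPM in SW620, 4 counts with DOX and 1 count without DOX. Of 27 genes of detoxification, 20 were lower and 6 higher in SW620, among them CYP1B1 at 0.357 CPM in SW620, 44.5 with DOX and 38.3 without DOX, and CYP3A5 at 4.35, 82.4 and 66.1 CPM. Of 14 ABC transporters, 9 were lower and 4 higher. ABCG2, a drug efflux pump, had 0.143 CPM in SW620, 78.1 with DOX and 95.1 without DOX, and ABCC2 was on the other side, at 29.1, 0.385 and 0.179 CPM. Sterol and fatty acid genes were lower in SW620 for 17 of 25 and higher for 6. SQLE, an enzyme of cholesterol synthesis, had 74.8 CPM in SW620, 391 with DOX and 586 without DOX, a fall with DOX in the direction of SW620.

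HOX genes, which record positional identity, differed between the lines in both directions. Of 39 on the list 33 were tested, and 19 were lower and 11 higher in SW620 than with DOX, against 36.8% and 41.6% over all genes. Against uninduced cells 14 were higher and 13 lower, beside 40.1% and 36.5% over all genes. DOX raised 21 of them and lowered 0, against 18.1% and 20.3% over all genes. HOXA13 had 2.14 CPM in SW620, 121 with DOX and 82.4 without DOX. HOXB9 had 56.9 CPM in SW620, 487 with DOX and 396 without DOX. HOXC10 was high in SW620 alone, at 44.4 CPM against 0.418 with DOX and 0.292 without DOX. Of 25 cancer-testis genes, 3 passed the filter, and MAGEB2 had 673 counts in SW620 and 0 in all HT-29 iZEB1 libraries.

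Of 17 proteases and their inhibitors, 8 were higher and 9 lower in SW620 than with DOX, against 41.6% higher and 36.8% lower over all genes. PLAU (urokinase) had 34.2 CPM in SW620, 0.327 with DOX and 1.01 without DOX. MMP7 (matrilysin) had 0.823 CPM in SW620, 30.0 with DOX and 36.5 without DOX. TIMP3, an inhibitor of metalloproteases, had 1498 counts in SW620 and 0 in all HT-29 iZEB1 libraries. SERPINB5 (maspin) fell towards SW620 with DOX, at 0.595 CPM in SW620, 8.29 with DOX and 47.4 without DOX. Of 19 S100 and annexin genes, 12 were lower and 6 higher, with ANXA1 at 48.8 CPM in SW620, 319 with DOX and 252 without DOX.

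Further lists are given by their counts. Over all genes, 41.6% were higher and 36.8% lower in SW620 than with DOX, and DOX raised 18.1% and lowered 20.3%. Of 16 YAP and TAZ targets, 6 were higher and 9 lower in SW620 than with DOX, and DOX raised 11 and lowered 1. Of 22 small GTPase genes, 9 were higher and 12 lower. Among 6 galectins 2 were higher and 3 lower. Of 20 cytosolic ribosomal genes, 9 were higher and 6 lower, with a median of 0.07 log2. Without SW620 replicate 1 or 2 the counts were 5 and 8, so the larger side depends on single libraries. Of 13 mitochondrially encoded genes, 2 were higher and 6 lower (median -0.37). Without replicate 2 with DOX, 0 were higher and 7 lower (median -0.60), and without any 1 of the SW620 libraries, or replicate 1 with DOX, 0 were higher and 6 lower.

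The defining markers of other cell types were mostly at or near 0, and some others were not. Of 10 fibroblast markers, 4 passed the filter, with a summed level of 12.2 to 13.3 CPM in SW620, 0.881 to 1.31 with DOX and 1.25 to 1.39 without DOX. These 4 were all called higher in SW620 than with DOX, 3 of them by at least 4-fold (median log2 5.01), with LUM (lumican) at 7.62 CPM in SW620, 0.607 with DOX and 0.414 without DOX. COL1A2, PDGFRA and POSTN had 0 counts in all 3 groups. The leukocyte markers summed to 3.9 to 4.62 CPM in SW620, 1756 to 1783 with DOX and 1315 to 1388 without DOX, nearly all of it LYZ, which the gut epithelium also makes. PTPRC (CD45) had 2 counts in SW620, 20 with DOX and 2 without DOX. The endothelial markers summed to 3.95 to 4.29 CPM in SW620, 44.9 to 51.7 with DOX and 59.1 to 67.5 without DOX, most of it ESAM, and CDH5 (VE-cadherin) had 1, 4 and 0 counts. Of the tested markers, 4 of 5 leukocyte markers were lower in SW620 than with DOX, and of 6 endothelial markers 3 were higher and 2 lower. The shares over all genes were 41.6% higher and 36.8% lower, and by at least 4-fold 13.2% and 10.7%. The part of these markers in the results above was not tested.

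Differences between the lines were spread unevenly over the chromosomes. The median log2 difference between SW620 and induced cells was highest on chromosome 22 (0.55 over 469 genes), X (0.49 over 608 genes), 14 (0.41 over 580 genes) and 17 (0.40 over 1179 genes). It was lowest on chromosome 15 (-0.42 over 633 genes), 18 (-0.40 over 246 genes), 4 (-0.38 over 624 genes) and 13 (-0.37 over 338 genes). On chromosome 18, where SMAD4 lies, 28.5% of genes were called higher and 52.8% lower in SW620. The medians for DOX within HT-29 iZEB1 lay between -0.06 and 0.03 on these and the other chromosomes. The part of gene copy number in these medians was not tested.

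**Figure D5:**
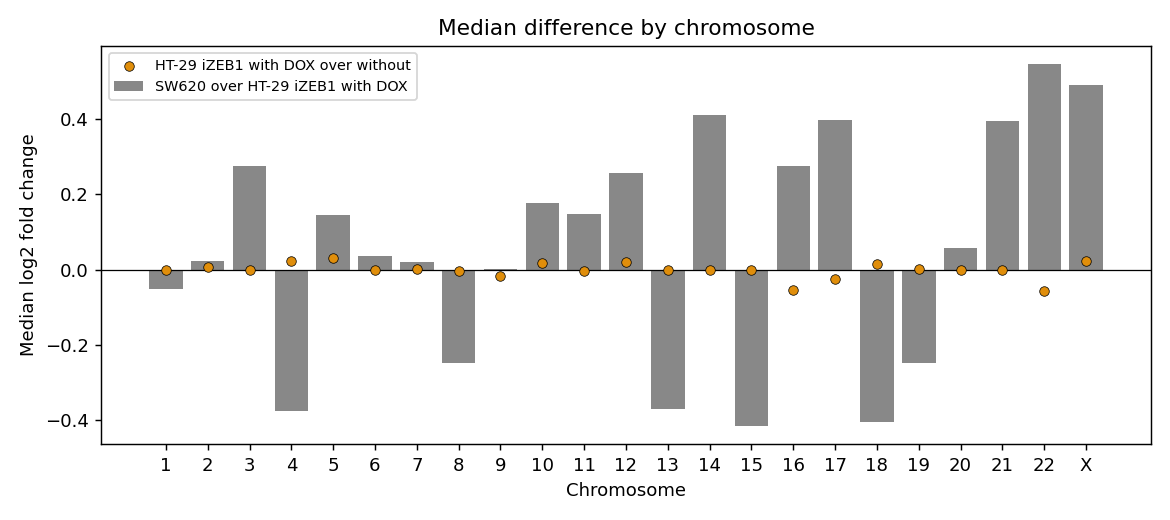
Median log2 fold change by chromosome for SW620 over HT-29 iZEB1 with DOX (grey bars) and for HT-29 iZEB1 with DOX over without DOX (orange points). The bars run from -0.42 on chromosome 15 to 0.55 on chromosome 22, while the points stay within -0.06 and 0.03.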

How the data were processed

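RNA was sequenced on a BGISEQ-500, per the labels' protocols. The authors deposited 1 table of raw read counts, whole numbers for 60642 gene symbols in 18 libraries. Per the submitters' processing notes, the authors worked on GRCh38.p13 with HISAT2 2.2.0 and featureCounts 2.0.0, beside FastQC 0.11.9 and DESeq2 1.34.0. No source used here gives the strandedness or the annotation version, so overlapping and antisense genes, and genes with close copies, have uncertain counts. Positions were matched by symbol to GENCODE 29 (18328 of 19107 tested symbols).

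All 18 libraries, in 6 labelled groups of 3, were fitted with edgeR 4.0.16 (R 4.3.3) with TMM scaling, filterByExpr (minimum count 10), glmQLFit and glmQLFTest. P-values were adjusted by Benjamini-Hochberg over 19107 genes, and a gene was called at an adjusted p below 0.05. The common biological coefficient of variation was 7.04%. CPM are counts divided by the TMM-scaled library size in M counts. Standard errors came from the unshrunken log2 fold change and the F statistic, while printed fold changes include edgeR's small prior count. Distances used log2 CPM with a prior count of 2. A fold against 0 counts was computed against a floor of 3 counts over the group, and 95% intervals of count ratios and floors cover counting error only. The fit was also run on simulated counts, with means and spread taken from the main fit. There SW620 equalled the induced cells except for 50 genes changed at each of 1.5-, 2-, 4- and 8-fold. Recovery was 96% at 1.5-fold and 100% at the larger folds, and 4.35% of calls were false. In the real data 78.5% of genes were called, a setting that the simulation did not imitate.

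The compared groups, the members and the 46 gene lists were chosen with earlier results of these data known. Named by rule were ZEB1, ZEB2, CDH1, EPCAM, VIM, CDX2 and KRT20, the 12 called genes with the largest and the 12 with the lowest fold change (at least 10 CPM, no overlap between libraries), up to 5 called members of each list by size (at least 5 CPM), and 10 genes each that DOX brought to SW620 or took away from it. Other list members are named as examples chosen after their values were seen. Libraries with the same replicate number did not deviate together, so the main fit has no block. The alternatives were another scaling, other filters, fewer libraries, DESeq2 1.42.0, the replicate block, each library left out and other prior counts. Some genes are not reported here.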

Additional observations from a re-analysis of the deposited data

How the results depend on the processing

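The counts of called genes over all genes tested stayed within 1.5 times under every alternative run, apart from those of at least 4-fold differences under the stricter filter (minimum count 50), where fewer genes were tested. That filter left 1549 genes higher in SW620 than with DOX, 1582 higher than without DOX, and 129 higher and 136 lower with DOX than without. Leaving out each library in turn gave 7358 to 7964 genes higher and 6825 to 7119 lower in SW620 than with DOX. The replicate block gave 14998 calls between SW620 and induced cells, and same-numbered libraries correlated by -0.02, 0.05 and 0.03.

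The root mean square distances, in the order SW620 to induced, SW620 to uninduced and induced to uninduced, were 1.65, 1.66 and 0.524 without a filter, 2.33, 2.36 and 0.577 with the stricter filter, 2.60, 2.64 and 0.716 with a prior count of 0.5, and 1.94, 1.95 and 0.543 with one of 5. The median absolute differences in the same order were 0.503, 0.460 and 0.213 without a filter, 0.796, 0.730 and 0.242 with the stricter filter, 0.892, 0.825 and 0.286 with a prior count of 0.5, and 0.805, 0.749 and 0.246 with one of 5. Library totals as the scaling gave 2.22 and 2.23 from SW620 to induced and uninduced cells, with a median absolute difference of 0.812 to the uninduced ones, and the 9 DMSO libraries alone gave 2.24 and 2.25, with 0.846 to the induced ones. Leaving out single libraries gave 2.21, 2.22 to 2.23 and 0.611 to 0.632. In each of these settings SW620 was slightly nearer to the induced cells by root mean square and farther by the median.

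With library totals, the median of all genes moved to 0.14 log2 between SW620 and induced cells and to 0.18 against uninduced ones, and the share of higher calls among DOX calls was 59.6%, against 47.1% with TMM.

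Of 4187 values of named genes under alternatives, 4158 kept direction and call, 18 lost the call, 1 gained it and 10 changed sign, none at more than 0.1 log2. CYBRD1, at 0.01 log2 between SW620 and induced cells, gave -0.0058 with DESeq2's size factors, -0.0248 without a filter, -0.025 with 9 libraries, -0.0278 with 6, -0.0074 with DESeq2, and -0.0962 to 0.0904 with single libraries left out. ETV1, at 0.12 log2, gave -0.0092 to 0.166 with single libraries left out. The lost calls were those of C1orf210, SLC1A7, ITGB6 and MT-ATP6. The cause was not tested.

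Counts of single lists moved more. Ribosomal genes higher in SW620 than with DOX numbered 5 with only the 6 or the 9 DMSO libraries fitted, against 9, and mitochondrially encoded ones 0 with DESeq2, against 2. Interferon targets that rose with DOX numbered 5 with DESeq2, 15 without a filter and 2 to 15 with single libraries left out, against 9. Under the stricter filter, which leaves fewer members, enterocyte genes numbered 4 higher and 8 lower, against 7 and 10.

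Depth limits genes near 0 counts, whose ratios have wide counting intervals.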
